A study of Mus musculus with 6 samples.

Results

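The genes described here encode the nuclear subunits of the mitochondrial respiratory chain and of ATP synthase, with cytochrome c and a set of complex I assembly factors. Each probe's transcript was mapped to a RefSeq symbol, and a gene was taken where the symbol began with Ndufa, Ndufb, Ndufc, Ndufs, Ndufv, Uqcr, Atp5 or any of Cox4 to Cox8, or was Sdha, Sdhb, Sdhc, Sdhd, Cyc1 or Cycs. This gave 128 probes of 95 genes. Of these, 127 probes of 94 genes were well above background somewhere among the 6 arrays and make up the members, out of 20284 genes with a symbol. Cox7b2 was left out because its probe did not reach that level on any array. A single probe stood for 69 members, 25 had more, and 91 members were well above background on all 6 arrays. A symbol was found for 26762 of 55681 probes, and 0 of these symbols belonged to mitochondrial DNA, so the subunits that mitochondria encode themselves are not covered; probes without a symbol were not searched for them.

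The respiratory chain sits in the inner mitochondrial membrane. Complex I takes electrons from NADH and complex II from succinate, both pass them to ubiquinone, complex III hands them on to cytochrome c, and complex IV gives them to oxygen. Complexes I, III and IV pump protons as they do so, and ATP synthase, also called complex V, lets the protons back through a rotor that drives ATP formation. Complex IV is known for subunits that exist as paired isoforms, a general form and a form best known from muscle, lung or testis.

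The data are 6 single-colour arrays from immature female CD-1 mice, 24 days old per the labels, with 1 array for each of liver, ovary and uterus in a control and in a BHPF group. BHPF is fluorene-9-bisphenol, a substitute for bisphenol A in plastics, and was given by daily intragastric dosing at 50 mg/kg bw/day for 3 days; control mice received peanut oil, the vehicle. The RNA on an array was a pool of 3 mice. With 1 array in a group no spread between animals within a group could be measured and no test was made; a fit of tissue and treatment as additive effects over the 6 arrays was not run. All arrays lay on the same slide, control and BHPF arrays at different positions, so effects of position would look like effects of treatment.

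A level is the log2 intensity of a probe minus the 75th percentile of its array, averaged over the probes of a gene, and a difference is always taken for the same gene between arrays. The 75th percentile lay at an intensity of 3443 on the liver control array, 7499.7 on the ovary control array and 5335 on the uterus control array. On the BHPF arrays it lay at 3292 for liver, 6389 for ovary and 4530.2 for uterus. A gene was evaluated in a comparison when at least 1 of both arrays was well above background, and a dim side was set no lower than the dimmest level well above background on its array, so that the difference is a bound. A gene was called when it differed at least 2-fold, a log2 difference of 1. Probes spotted many times give the only measure of precision: from their spread, the SD of a log2 difference due to spot noise alone was 0.14, and 2 such SDs came to 0.27. Uqcrc2, a core subunit of complex III, is such a probe with 10 spots on each array, and its level was 4.36 (SD 0.08 over spots) on the liver control array and 4.31 (SD 0.08) on the liver BHPF array. The SD of spot noise is 1 figure for all levels, taken from probes well above background, and was not estimated for dim probes.

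The labelled tissues were checked against their markers. On the ovary arrays all 12 ovary markers were well above background, with a summed linear level of 55.8 in control and 57.0 with BHPF, against 2.53 to 2.75 on the liver and uterus arrays. The 10 uterus markers were all well above background on the uterus arrays and summed to 38.9 in control and 35.4 with BHPF, against 0.999 to 2.57 elsewhere. The 12 liver markers summed to 442 on the liver control array and 428 on the liver BHPF array. On the ovary arrays they summed to 8.60 in control and 10.2 with BHPF, all 12 being well above background with Apoa1 the brightest. On the uterus they summed to 2.91 in control and 43.6 with BHPF, where all 12 were well above background and Alb had the brightest probes, at a level of 3.36; Cps1 was not above background in the control uterus. The BHPF uterus array thus held far more of these transcripts than the control uterus array, and their part in any uterus difference below was not tested. In the authors' table of log2 values the column headed uterus control follows the scanner intensities labelled uterus BHPF, with 99.2% of values within 0.001, and the column headed uterus BHPF follows those labelled uterus control, also with 99.2%. The scanner files' own labels are used here. Under the table's headings every uterus difference between BHPF and control turns its sign. The paper reports that many biotransformation genes were higher, and Sprr2 genes lower, in the uterus with BHPF. The liver markers are a different list and do not decide which labels hold. Under the scanner files' labels they summed to 2.91 in control and 43.6 with BHPF.

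No member differed at least 2-fold between BHPF and control in any tissue. In the liver 0 of 92 members evaluated were called, against 4.74% of all genes. In the ovary 0 of 94 were called, against 1.09% of all genes, and in the uterus 0 of 93, against 3.09%. None of the 7 ways of scaling the arrays gave a call. Single members lay close to 0: 88 of 92 liver differences were within 2 SDs of spot noise, as were 89 of 94 in the ovary and 85 of 93 in the uterus, compared with 10279 of 15530, 13932 of 16863 and 12189 of 16161 for all genes. Members were brighter than most probes, with a median level of 3.76 on the liver control array, where the 95th percentile was 3.39. Neither the calls nor these shares were set beside genes of like level. The median difference of the members was 0.05 in liver, 0.02 in ovary and −0.02 in uterus, beside 0.00, 0.01 and 0.00 over all genes. The sign of all 3 medians depended on the settings: the uterus median was 0.0031 with each probe counted by itself and 0.0034 with the brightest probe of each gene. With the 50th percentile the liver median of all genes shifted to −0.30 and that of the members to −0.27, and without scaling the all-gene medians were −0.21 in ovary and −0.22 in uterus. Relative to all genes, the members' median was between 0.03 and 0.08 in liver, between −0.03 and 0.03 in ovary and between −0.04 and −0.02 in uterus over the 7 scalings. In these bulk tissues a change in the number of cells of a type and a change in RNA per cell cannot be told apart.

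The core of complex I holds the subunits that carry the flavin and the iron-sulfur clusters. All 7 of its members lay within 2 SDs of spot noise in every tissue. Ndufs1, the largest iron-sulfur subunit, had levels of 3.65 and 3.62 in control and BHPF liver, 2.51 and 2.53 in ovary, and 2.30 and 2.19 in uterus. Ndufv1, which binds NADH, stood at 3.78 and 3.83 in liver, 2.72 and 2.77 in ovary, and 2.78 and 2.83 in uterus. For both genes the arrays paired by treatment were nearly equal and the liver arrays were the high ones.

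The 29 accessory subunits of complex I surround that core. They ranged from −0.24 to 0.22 with BHPF in liver, from −0.19 to 0.30 in ovary and from −0.44 to 0.35 in uterus. The widest differences were in the uterus, where Ndufa9, a subunit near the ubiquinone site, had a level of 1.88 in control and 1.44 with BHPF, a difference of −0.44. Ndufa1, a small membrane subunit, went the other way in the uterus, 2.37 in control and 2.72 with BHPF, a difference of 0.35. Both signs held under all 7 scalings. The 8 assembly factors, which build complex I without remaining in it, had median differences of 0.18 in liver, −0.09 in ovary and −0.10 in uterus; the liver median was −0.13 with the 50th percentile and 0.17 relative to all genes there, while the ovary median was 0.08 with normexp background correction. Ndufaf5, which modifies the core subunit Ndufs7, differed by 0.31 in liver, and Ndufaf6 by 0.30; with the 50th percentile these were −0.01 and −0.02.

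Complex II, the 4 subunits of succinate dehydrogenase, shares its reaction with the citric acid cycle. Sdha, the flavoprotein that oxidizes succinate, had levels of 3.15 and 3.26 in control and BHPF liver, 1.95 and 2.09 in ovary, and 2.09 and 2.03 in uterus. Sdhb, the iron-sulfur subunit, had levels of 4.23 and 4.05 in liver, 2.82 and 2.82 in ovary, and 2.71 and 2.80 in uterus. No member of complex II differed by more than 2 SDs of spot noise in any tissue.

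In complex III, 9 of 9 members lay within 2 SDs of spot noise in liver and ovary and 8 of 9 in uterus. The exception was Cyc1, cytochrome c1, with uterus levels of 2.72 in control and 2.44 with BHPF, a difference of −0.28. Uqcrfs1, the Rieske iron-sulfur protein, had levels of 1.74 and 1.75 on the same arrays.

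Cytochrome c, the soluble carrier between complexes III and IV, was a member whose probes disagreed. Cycs has 3 probes, whose ovary differences with BHPF were −0.11, 1.03 and 0.03; the value of 1.03 came from a dim probe at −4.80 in control and −3.78 with BHPF. In uterus the differences were −0.41, a bound of −0.53 from the dim probe and 0.06, with a gene average of −0.29. The gene average of 0.32 in ovary rests on the dim probe, the only one past 2-fold when each probe was counted by itself.

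All 12 general subunits of complex IV lay within 2 SDs of spot noise in every tissue. Cox4i1, the general form of subunit 4, had levels of 4.77 and 4.98 in control and BHPF liver, 3.78 and 3.99 in ovary, and 4.14 and 4.27 in uterus. Cox5a, a subunit of the matrix side, had levels of 4.29 and 4.32 in liver, 2.82 and 2.88 in ovary, and 2.98 and 2.83 in uterus. Among the tissue-restricted isoforms, only Cox6a2 lay beyond 2 SDs of spot noise in liver, and only Cox8b and Cox7a1 in ovary. In uterus Cox8b, Cox6a2 and Cox4i2 did. Cox6a2, Cox8b and Cox4i2 are single probes far dimmer than most members, and the SD of spot noise was not estimated for such levels. The dim Cycs probe above moved by 1.03 in ovary, where its brighter probes moved by −0.11 and 0.03. Whether these isoform differences exceed the noise of dim probes was not tested. Cox6a2, the heart and muscle form of subunit 6a, had a level of −4.04 in control liver and −3.43 with BHPF, a difference of 0.61 or 1.53-fold and the largest of any member in any tissue at the main scaling; with the 50th percentile it was 0.30 and with quantile normalization 0.28. Cox8b, the muscle form of subunit 8, had levels of −2.84 and −3.25 in ovary and −1.45 and −1.88 in uterus, and was not above background on either liver array. Striated muscle markers were sparse in liver, with 5 of 14 well above background in control and 6 with BHPF, a summed level of 0.440 and 0.401 and Tnni2 the brightest on both arrays; on the BHPF array Ckm, Mb, Myh1, Myh2, Myh4, Actn3, Casq1 and Ckmt2 were not above background, nor was Myl1 in control. In ovary 10 of 14 were well above background in control and 9 with BHPF, with summed levels of 2.74 and 2.55 and Acta1 the brightest on both arrays; Ckm, Myh1, Myh4 and Ckmt2 were not above background on either, nor Casq1 with BHPF. In uterus 9 were well above background in control and 8 with BHPF, with summed levels of 15.0 and 11.4, Tnni2 the brightest in control and Acta1 with BHPF; Myh1, Myh2, Myh4, Myl1 and Ckmt2 were not above background on either, nor Ckm with BHPF. The part of these markers in the Cox6a2 and Cox8b differences was not tested.

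In ATP synthase, 16 of 17 members lay within 2 SDs of spot noise in each tissue. Atp5a1, the alpha subunit of the catalytic head, had levels of 3.80 and 4.03 in control and BHPF liver, 2.74 and 2.77 in ovary, and 2.93 and 3.09 in uterus. Atp5b, the catalytic beta subunit, had levels of 4.26 and 4.36 in liver, 3.30 and 3.40 in ovary, and 3.41 and 2.97 in uterus. The uterus difference of −0.44 was the exception there, as was 0.29 for Atp5c1, the central stalk subunit, in liver, where its probes gave 0.06 and 0.51 and the 50th percentile an average of −0.03. In the ovary it was −0.35 for Atp5o, which joins the head to the peripheral stalk.

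**Figure D1:**
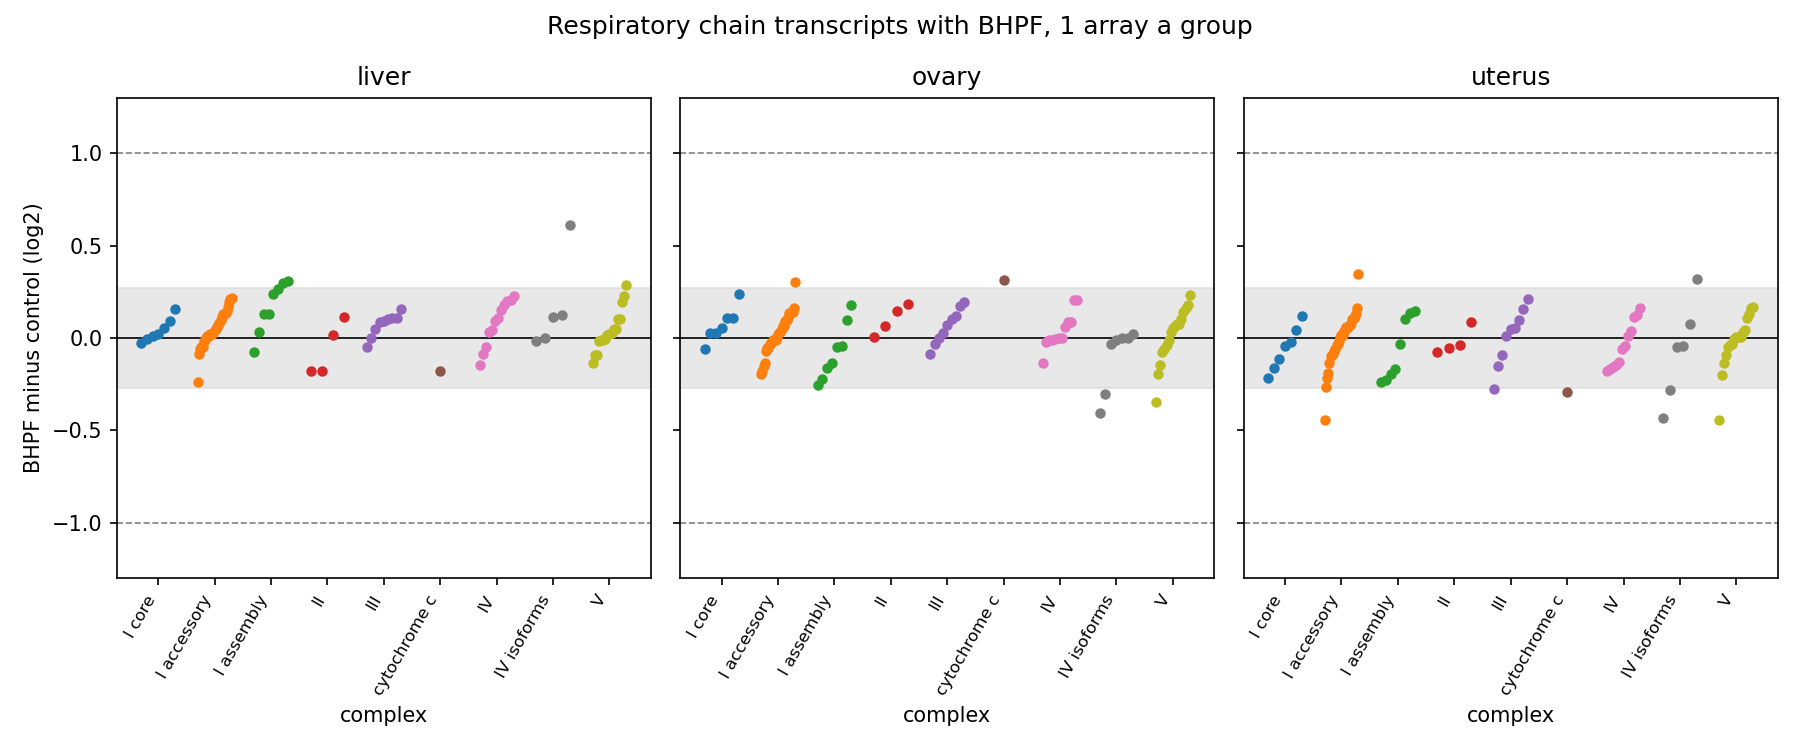
Each point is a member gene, placed by complex on the horizontal axis, with its BHPF minus control difference (log2, 75th percentile scaling, 1 array a group) on the vertical axis for liver, ovary and uterus. The grey band is 2 SDs of spot noise (0.27), not estimated for dim probes, and the dashed lines mark 2-fold. No point passes the dashed lines, the farthest being the dim Cox6a2 in liver at 0.61, and the sign of points near 0 changes with the scaling.

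On the control arrays the liver stood apart, with most members higher there than in uterus or ovary. Against the uterus, 47 of 93 members were at least 2-fold higher in liver, against 20.0% of all genes, and 3 were at least 2-fold lower, against 22.6%. Against the ovary, 59 of 94 were higher, against 21.6% of all genes, and 4 were lower, against 22.7%. The median difference of the members was 1.005 for liver minus uterus and 1.06 for liver minus ovary, beside 0.02 and 0.01 over all genes. Since the median sat at the threshold, 36 and 43 members lay within 0.14 of it, and a count there says little.

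How far liver exceeded the other tissues depended on the scaling. On the liver control array the 95th percentile of levels was 3.39, against 2.49 in ovary and 2.58 in uterus, so bright probes lay farther above the 75th percentile in liver. For liver minus uterus, all genes shifted to a median of 0.59 with the 50th percentile, −0.34 with the 75th percentile of probes well above background on all arrays and −0.61 without scaling, and the calls of 93 members were 86 higher and 3 lower, 9 and 3, and 2 and 5, beside 36.1%, 13.9% and 11.2% of all genes higher. For liver minus ovary, the corresponding all-gene medians were 0.47, −0.31 and −1.05, with calls of 94 members of 86 higher and 3 lower, 6 and 4, and 0 and 6, beside 34.1%, 15.3% and 9.29% of all genes higher. With the bright-probe and unscaled values the share of members called higher was thus below that of all genes, and the unscaled liver minus ovary median reversed to −0.06. These settings move all genes of an array by the same amount, so the members' median relative to all genes, 0.99 for liver minus uterus and 0.99 to 1.05 for liver minus ovary, is nearly fixed by construction and is no check of the offset. Quantile normalization, which gives both arrays the same distribution, took most of the offset away: relative to all genes the median was 0.32 for liver minus uterus and 0.20 for liver minus ovary, with calls of 3 higher and 3 lower and of 2 higher and 3 lower. The members called higher were then far fewer than the 19.6% and 19.9% of all genes. The sign of a single member was the same under all scalings for most genes in liver minus uterus, where it differed for 12 of 93, but not in liver minus ovary, where it differed for 58 of 94, mostly because the unscaled values turned.

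The BHPF arrays, from other mice, gave like values. For liver minus uterus 57 of 93 members were at least 2-fold higher, against 21.4% of all genes, and 3 lower, against 22.3%. For liver minus ovary 57 of 93 were higher, against 22.8%, and 3 lower, against 21.8%. The members' medians were 1.06 and 1.06. In both treatments 42 members were called higher in liver than in uterus, and 49 higher than in ovary. At this scaling 36 members ran in the order liver, ovary, uterus on the control arrays and 50 in the order liver, uterus, ovary. On the BHPF arrays these were 45 and 42. Calls shared by both treatments and tissue orders were not counted over all genes, so these counts are not read as a trait of the members. Without scaling the liver minus ovary median was 0.10 on the BHPF arrays, where the control arrays gave −0.06. The BHPF uterus array used here holds the liver transcripts given above.

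Ovary and uterus were close. For ovary minus uterus in control, 0 of 94 members were at least 2-fold higher, against 11.0% of all genes, and 1 was lower, against 13.6%. The members' median was −0.08, and 69 of 94 lay within 2 SDs of spot noise, compared with 6210 of 17159 genes. Here too genes of like level were not set beside the members. The median was 0.41 without scaling, where all genes shifted to 0.45, and 0.09 with quantile normalization, so its sign is not fixed. On the BHPF arrays 3 of 93 were higher, against 10.5% of all genes, and 1 lower, against 15.3%. The 3 were Cox6a2, Ndufab1 and the assembly factor Ndufaf2, and the lower gene on both pairs of arrays was Cox8b.

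In the complex I core, liver exceeded uterus by a median of 0.995 and ovary by 1.09. Relative to all genes these became 0.28 and 0.16 with quantile normalization, the lowest of the 7 scalings. The core's own liver minus ovary median turned negative without scaling. Ndufs1 differed most from the uterus, by 1.35, and Ndufv2, an iron-sulfur subunit beside Ndufv1, least, by 0.90. Among the accessory subunits the medians were 0.996 and 0.99, or 0.32 and 0.15 relative to all genes with quantile normalization. Without scaling the liver minus ovary median of the accessory subunits turned negative. Ndufab1, the mitochondrial acyl carrier protein, which also serves fatty acid and lipoate synthesis, stood apart from them. Its levels were 1.84 in control liver, 0.43 in ovary and −0.39 in uterus, and 1.98, 0.55 and −0.61 on the BHPF arrays. Liver exceeded uterus 4.72-fold, and over the 7 scalings that log2 difference ran from 1.61 to 2.81. The order liver, ovary, uterus held in both treatments. Ndufa8, with 1.40, came next. Ndufb11 had the lowest gene average, 0.73, but its probes differed, with 1.01 from the bright probe and 0.46 from a dim one.

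The complex I assembly factors were spread widely, from 0.33 to 1.73 for liver minus uterus. Their medians were 1.16 for liver minus uterus and 0.66 for liver minus ovary, or 0.75 and 0.36 relative to all genes with quantile normalization. Without scaling their liver minus ovary median turned negative. Ndufaf6, needed for early assembly, had levels of 2.11, 0.50 and 0.38 in control liver, ovary and uterus, and 2.40, 0.36 and 0.18 with BHPF. Its liver minus uterus difference was at least 2-fold under all 7 scalings, from 1.09 to 2.30. Ndufaf1, which acts on the membrane arm, differed by 1.52 in liver minus uterus. Ndufaf7, a methyltransferase needed for complex I assembly, differed by only 0.33 there, and its sign changed with 3 of the scalings. Ndufaf5 was at −0.41 in liver minus ovary, a value that averages −0.20 from a bright probe and a bound of −0.63 from a dim one; the sign turned with the 50th percentile, and the BHPF arrays gave 0.10. In ovary minus uterus the assembly factors had a median of 0.37, positive under all 7 scalings.

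In complexes II and III nearly every member was higher in liver at the main scaling by the 2-fold threshold. The medians of complex II were 1.14 for liver minus uterus and 1.32 for liver minus ovary, with 4 of 4 members called higher in both, beside 20.0% and 21.6% of all genes; relative to all genes with quantile normalization they were 0.47 and 0.51. Sdhb had the largest liver minus uterus difference, 1.52, and Sdhd, which helps anchor the enzyme in the membrane, the largest liver minus ovary difference, 1.48. In complex III the medians were 1.25 and 1.24, with 8 and 9 of 9 members called higher beside the same shares, and relative to all genes with quantile normalization 0.60 and 0.35. Uqcrq, a small ubiquinone-binding subunit, differed by 1.46 from the uterus, Cyc1 by 1.37 and Uqcrfs1 by 1.33. Uqcrh, the hinge protein that helps cytochrome c bind, had the smallest difference from the uterus, 0.83. Uqcrc2, measured on 10 spots, differed by 1.13 from the uterus and by 1.09 from the ovary.

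For cytochrome c the liver minus uterus differences of the 3 Cycs probes were 1.36, 1.40 and 1.48, and the liver minus ovary differences 1.17, 1.66 and 1.17. The probes were close against the uterus but not against the ovary, where the dim probe gave 1.66, and the gene averages were 1.42 and 1.33. Under quantile normalization they were 1.096 and 0.88. The testis form Cyct, which the symbol rule does not take in, ran the other way, with levels of −4.75 in control liver, −1.51 in ovary and −3.38 in uterus.

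Among the general subunits of complex IV the medians were 0.93 for liver minus uterus and 1.09 for liver minus ovary. Relative to all genes they were 0.24 and 0.18 with quantile normalization, and without scaling the liver minus ovary median turned negative. Cox5a was the highest, with 1.31 and 1.47. Ndufa4, long counted with complex I and now placed in complex IV, had levels of 4.40, 2.94 and 3.40 in control liver, ovary and uterus, so that its liver minus ovary difference, 1.46, was well above its liver minus uterus difference, 0.999. Cox4i1 differed by 0.64 from the uterus. Cox7a2l, which links complexes III and IV into supercomplexes, differed least, with levels of 3.55, 2.87 and 3.23 in control liver, ovary and uterus and 3.65, 2.96 and 3.39 with BHPF. Its liver minus uterus difference of 0.32 turned negative with the bright-probe, quantile and unscaled values. Complex IV was also the group lowest in ovary relative to uterus, with a median of −0.24 that was negative in all scalings but the unscaled values, where it was 0.25 and still −0.20 relative to all genes.

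In ATP synthase the medians were 0.93 for liver minus uterus and 1.07 for liver minus ovary. Relative to all genes they were 0.21 and 0.21 with quantile normalization, and without scaling the liver minus ovary median turned negative. Atp5pb, of the peripheral stalk, differed most from the uterus, by 1.26, and Atp5d, of the central stalk, most from the ovary, by 1.33. The 3 genes for the rotor ring subunit, which yield the same mature peptide, were not alike. Atp5g1 differed by 1.07 and 1.26 from uterus and ovary, Atp5g2 by 0.60 and 0.87, and Atp5g3 by 0.63 and 0.84. The catalytic subunits Atp5a1 and Atp5b differed from the uterus by 0.87 and 0.85.

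**Figure D2:**
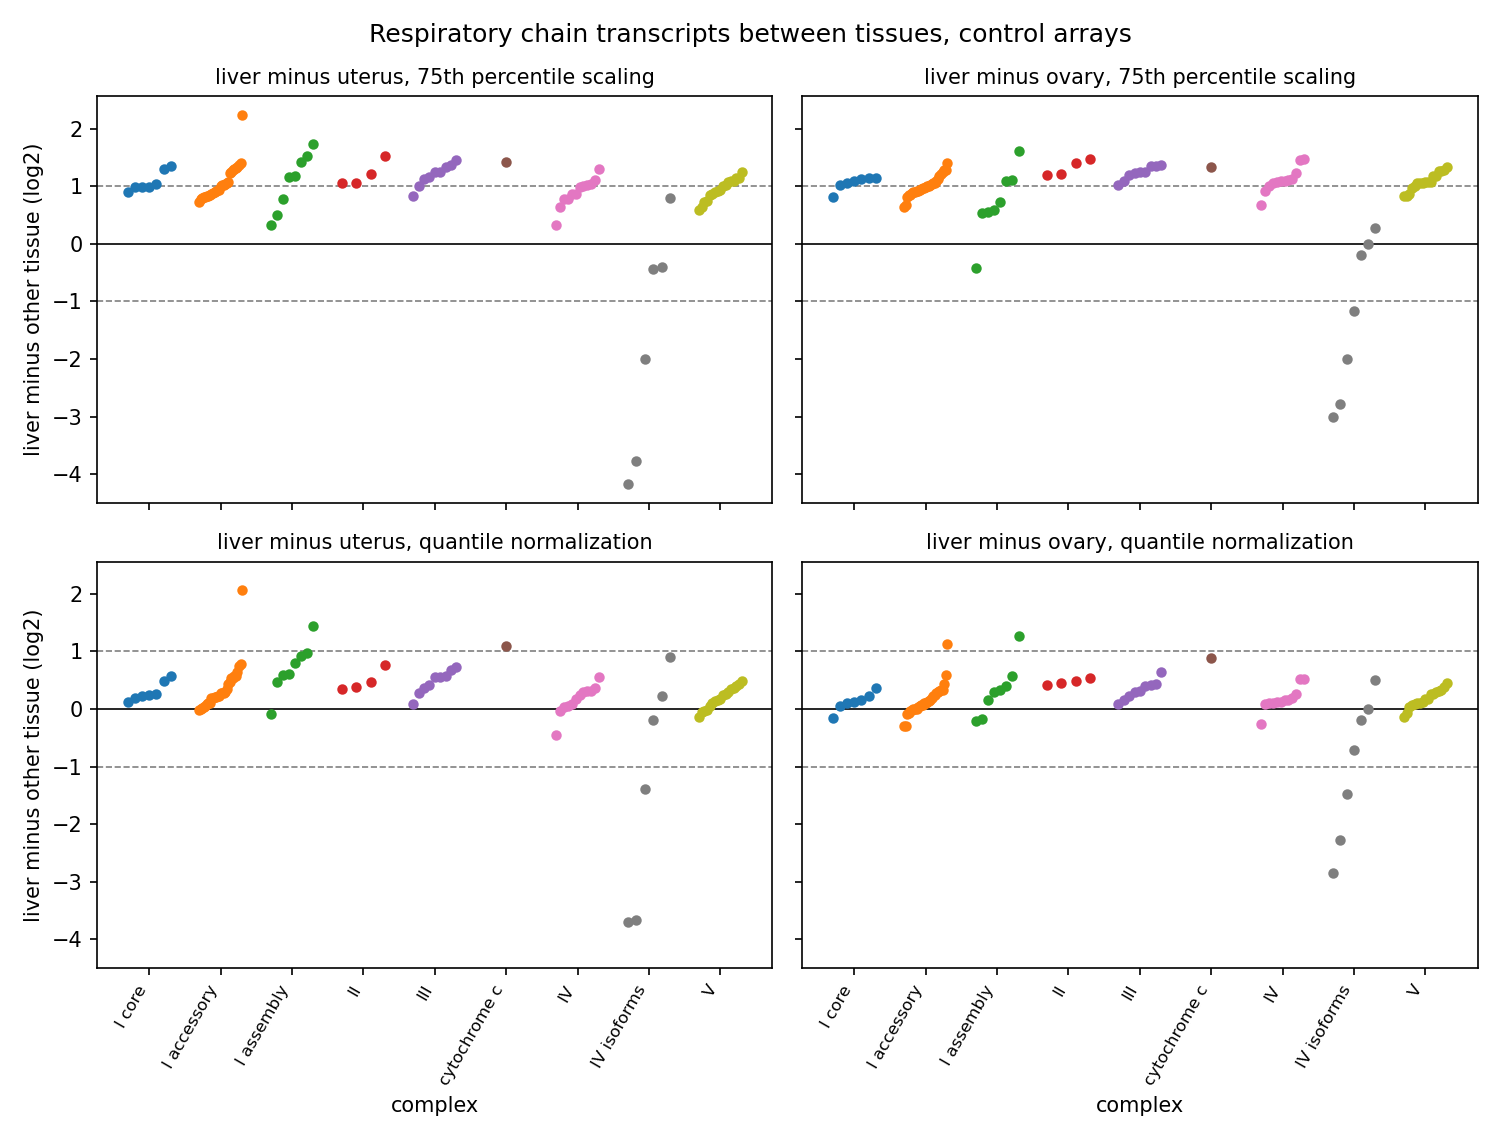
Each point is a member gene on the control arrays, placed by complex on the horizontal axis, with its liver minus uterus (left) or liver minus ovary (right) difference in log2 on the vertical axis, at the 75th percentile (top) and after quantile normalization (bottom); dashed lines mark 2-fold. Most points sit near 1 in the top panels (medians 1.005 and 1.06) and near 0 below (medians 0.28 and 0.16), while the isoform Cox6b2 lies at −3.78 and −3.01 at the top and stays low below, the Cox8b points being bounds; without scaling the liver minus ovary median is −0.06.

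Among the tissue-restricted isoforms of complex IV, Cox6b2 and Cox4i2 were lower in control liver than in uterus. Their general partners were higher there at the main scaling. Cox6b2, the testis form of subunit 6b, had levels of −2.74 in control liver, 0.26 in ovary and 1.03 in uterus, and −2.63, 0.26 and 1.11 on the BHPF arrays. It was 13.7-fold lower in liver than in uterus and 8.04-fold lower than in ovary, and the log2 differences stayed at or below −3.20 and −2.54 under all scalings. Its general partner Cox6b1 had levels of 4.20, 3.15 and 3.16 in control liver, ovary and uterus, a liver minus uterus difference of 1.04. So the pair moved in opposite directions between the same arrays, apart from the unscaled liver minus ovary values, where Cox6b1 was also lower in liver.

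Cox4i2, the isoform of subunit 4 known from lung and from low oxygen, had levels of −5.06, −3.07 and −3.06 in control liver, ovary and uterus, and −5.03, −3.10 and −2.74 with BHPF, the BHPF liver value being not above background. Its differences were −2.002 for liver minus uterus and −1.99 for liver minus ovary, and lay between −3.12 and −1.35 under all scalings. Cox8b had levels of −6.14, −2.84 and −1.45 in control liver, ovary and uterus. As it was not above background in liver, its differences are bounds of −4.17 from the uterus and −2.78 from the ovary. It was also 2.63-fold lower in ovary than in uterus, the only member called there in control. On the control arrays Cox6b2 and Cox4i2 were called lower in liver than in either other tissue under all 7 scalings. Cox8b was well above background only in ovary and uterus, so that it lay lower in liver follows from how it was taken in, and nothing is read from it.

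Cox6a2 had levels of −4.04, −2.87 and −3.63 in control liver, ovary and uterus, lowest in liver and highest in ovary, and −3.43, −2.85 and −3.91 with BHPF, lowest in uterus. It was called lower in control liver than in ovary, at −1.17, but with the 50th percentile this was −0.71, and its liver minus uterus difference turned from −0.41 to 0.17. Cox7a1, the muscle form of subunit 7a, had levels of −0.04, 0.15 and −0.83 in control and 0.09, −0.15 and −0.88 with BHPF, lowest in uterus in both, while its partner Cox7a2 stood at 4.09, 2.97 and 3.23 in control. Ndufa4l2, a relative of Ndufa4 induced by low oxygen, had levels of −1.25, −1.53 and −0.82 in control and −1.27, −1.54 and −0.87 with BHPF, highest in uterus in both at this scaling; with the 50th percentile its control liver minus uterus difference turned from −0.43 to 0.14. Cox8c, a testis form of subunit 8, was above background only on the control ovary array, at −5.84.

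Markers of other cell types also differed between the control arrays, though not all lists were lowest in liver. Smooth muscle markers were well above background for 7 of 8 genes on the control liver array, with Mylk the exception, and for 8 of 8 in ovary and uterus, and summed to 8.28, 46.5 and 97.1, with Tagln the brightest in liver and Acta2 in the other two. Striated muscle markers summed to 0.440 in control liver, 2.74 in ovary and 15.0 in uterus, with 5, 10 and 9 of 14 well above background; Tnni2 was the brightest in liver and uterus and Acta1 in ovary, and not above background were Ckm, Mb, Myh1, Myh2, Myh4, Myl1, Actn3, Casq1 and Ckmt2 in liver, Ckm, Myh1, Myh4 and Ckmt2 in ovary, and Myh1, Myh2, Myh4, Myl1 and Ckmt2 in uterus. Germ cell markers summed to 3.13, 24.4 and 2.21, with 2, 8 and 5 of 8 well above background, Zp3 the brightest in ovary and Sycp3 in the other two, while Dazl, Zp2 and Oosp1 were not above background in liver or uterus, nor Ddx4, Zp1 and Zp3 in liver. Among brown fat markers Ucp1 was not above background on any array; 4, 4 and 3 of 6 were, summing to 1.34, 0.957 and 5.62, led by Ppargc1a in liver and Dio2 in ovary and uterus, with Dio2 not above background in liver, Elovl3 in ovary and uterus, nor Zic1 in uterus. Their part in the isoform differences was not tested.

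**Figure D3:**
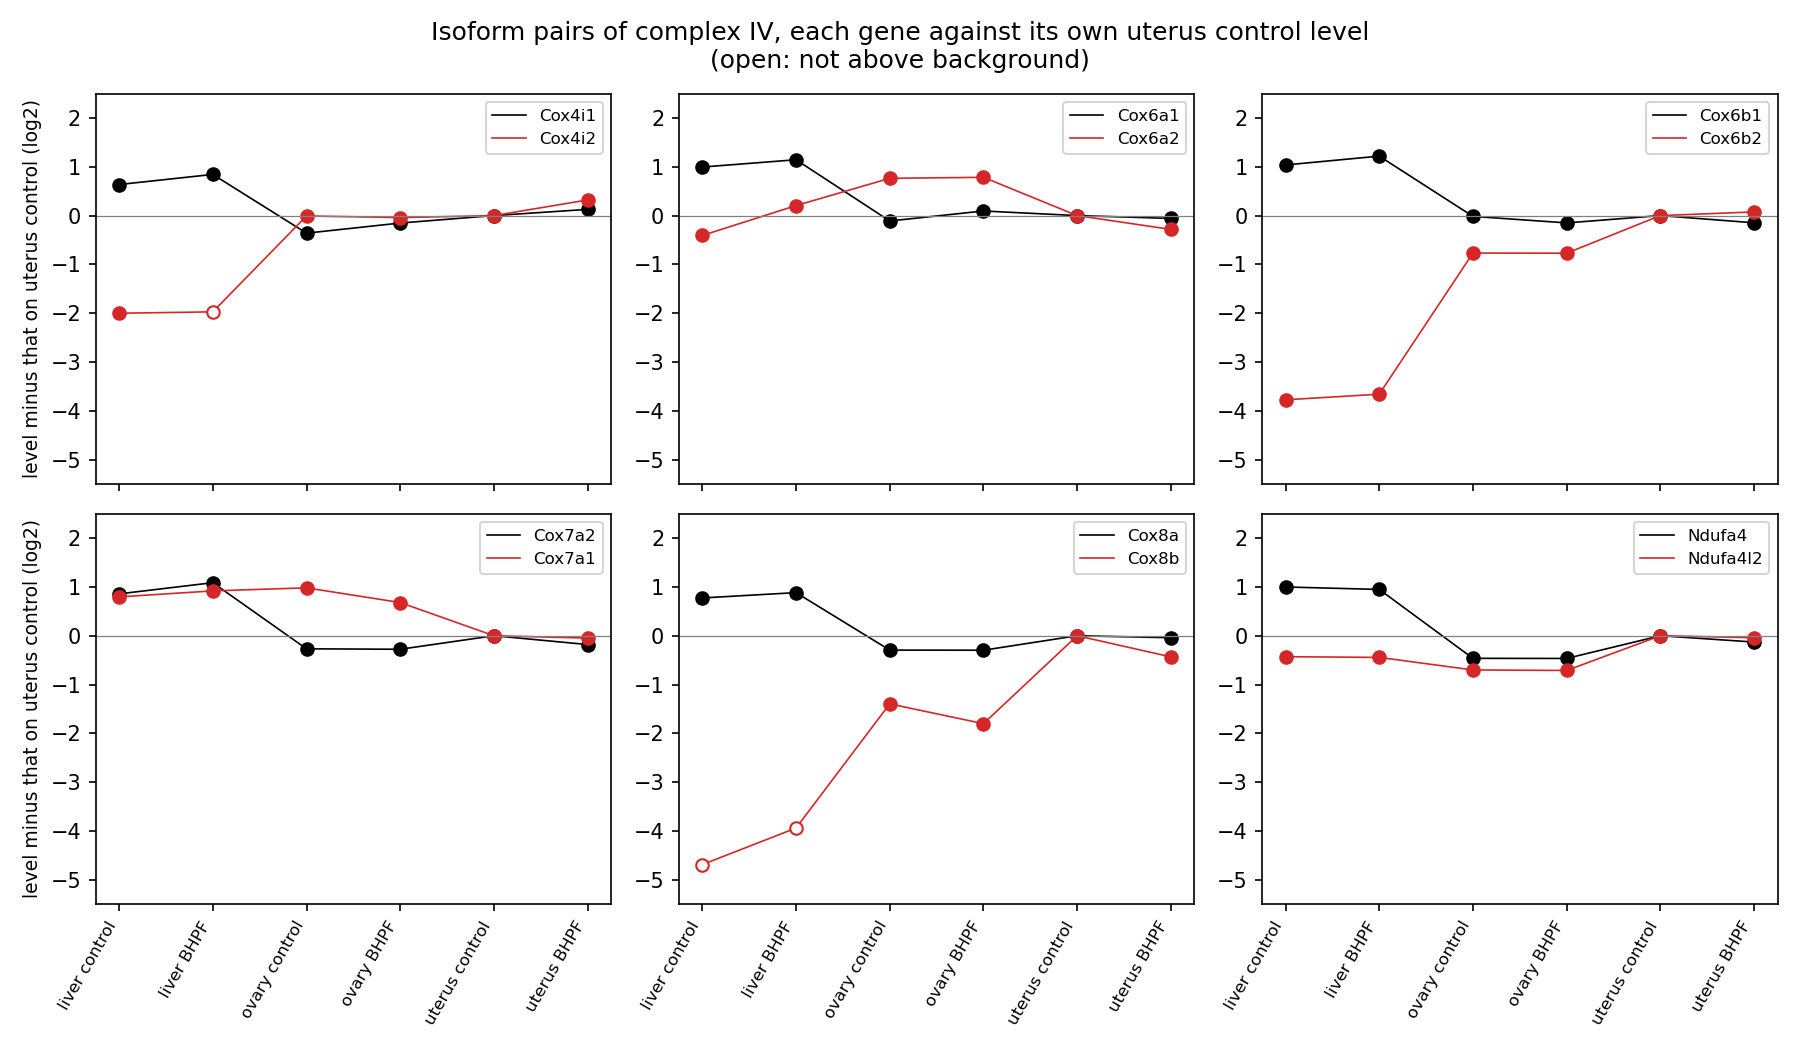
Each panel shows an isoform pair of complex IV over the 6 arrays, with the level of each gene minus its own level on the control uterus array (log2, 75th percentile scaling) on the vertical axis; black is the general form, red the restricted form or relative, and open circles were not above background. General forms are higher in liver, Cox6b1 by 1.04 and Cox8a by 0.77, while Cox6b2 and Cox4i2 are lower there by any scaling and Cox8b is not above background there; the general forms' excess over ovary is lost for several genes without scaling.

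Related gene lists were set beside the members. Their medians are not taken relative to all genes, whose unscaled medians were −0.61 for liver minus uterus and −1.05 for liver minus ovary. With the bright probes the all-gene median was −0.34 for liver minus uterus. Every negative unscaled or bright-probe median given here for a list lay above that of all genes. With quantile normalization the all-gene medians were −0.04 and −0.04. The mitochondrial ribosomal proteins, nuclear genes for the organelle's own translation, had medians of 0.96 for liver minus uterus, with 35 of 77 called higher and 0 lower beside 20.0% and 22.6% of all genes, and 0.73 for liver minus ovary, with 15 of 77 higher and 0 lower beside 21.6% and 22.7%. The latter share of higher calls was near that of all genes, and the medians were 0.27 and 0.00 with quantile normalization and −0.39 for liver minus ovary without scaling. A wider list of assembly factors had medians of 0.93 and 0.88, with 15 and 13 of 37 called higher and 0 lower, and of 0.74 and 0.46 with quantile normalization, but −0.24 for liver minus ovary without scaling. In that list Sco2, a copper chaperone for complex IV, stood out with differences of 1.97 and 1.87. The citric acid cycle enzymes had medians of 0.91 and 0.96, with 7 and 8 of 17 called higher and 0 lower, and of 0.19 and 0.14 with quantile normalization, but −0.17 for liver minus ovary without scaling. The cytosolic ribosomal proteins had lower medians, 0.30 with 5 of 92 higher and 5 lower, and 0.63 with 5 of 93 higher and 7 lower; these turned to −0.32 and −0.25 with quantile normalization and to −0.33 and −0.49 without scaling, and the former to −0.06 with the bright probes. Glycolysis genes had medians of 0.45, with 7 of 23 higher and 5 lower, and 0.77, with 7 higher and 6 lower; the former turned to −0.18 without scaling, and the latter to −0.18 with quantile normalization and −0.35 without scaling.

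Regulators of mitochondrial biogenesis had medians of 0.81, with 6 of 19 called higher and 1 lower beside 20.0% and 22.6% of all genes, and 0.56, with 4 higher and 3 lower beside 21.6% and 22.7%. The latter count of higher calls was at the share of all genes, and that median turned to −0.57 without scaling, where all genes had −1.05. Ppargc1a, a coactivator that drives respiratory chain genes, had levels of −0.06, −3.78 and −1.85 in control liver, ovary and uterus, and −0.65, −4.34 and −1.73 with BHPF. Esrra, the nuclear receptor it acts through, had levels of 2.24, 0.31 and 1.26 in control. Both were thus highest in liver at the main scaling, as most members were, but lower in ovary than in uterus, where the members were close.

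Promoter windows from the RefSeq annotation of GRCm38.p6, 250 bases before to 50 bases from each transcript start, were searched on both strands for the binding letters of known respiratory chain regulators. The NRF1 core CGCATGCG occurred in 14.8% of 81 member windows, in 12 of 76 genes, against 1.87% of 32851 windows of all genes. The YY1 letters AAGATGGCG occurred in 9.88% of member windows against 1.40%, the ERR letters CAAGGTCA in 4.94% against 1.56%, the ETS letters CCGGAAGT in 6.17% against 3.89%, and the GC box GGGCGG in 44.4% against 35.7%. None of the 3 windows of complex IV isoforms had the NRF1, YY1, ERR or ETS letters. Most general complex IV genes with a window had none of them either, the exceptions being Cox6a1 (NRF1) and Cox8a (ETS). Such matches describe the sequence only, and binding was not measured.

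The NRF1 letters fell within 200 bases before the start in 8 members, of which 5 are shown as examples, for a complex I subunit, an assembly factor, complex IV, ATP synthase and cytochrome c. Capitals mark the NRF1 core CGCATGCG, which reads the same on both strands, and the GC box GGGCGG, or CCGCCC where it lies on the other strand. The core begins 59 bases before the start in Ndufa11, 112 in Ndufaf4, 161 in Cox6a1, 41 in Atp5g2 and 61 in Cycs; in Ndufaf4 a pair of GC boxes overlap from 89 bases before the start. The positions are Ndufa11 chr17:56717562-56717761 (plus strand), Ndufaf4 chr4:24897883-24898082 (plus strand), Cox6a1 chr5:115348959-115349158 (minus strand), Atp5g2 chr15:102671048-102671247 (minus strand), Cycs chr6:50566570-50566769 (minus strand), each read along its gene.
Ndufa11: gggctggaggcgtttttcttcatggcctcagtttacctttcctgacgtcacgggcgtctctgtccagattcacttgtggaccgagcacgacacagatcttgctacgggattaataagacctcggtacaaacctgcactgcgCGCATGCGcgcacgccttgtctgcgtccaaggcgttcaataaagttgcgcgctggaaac
Ndufaf4: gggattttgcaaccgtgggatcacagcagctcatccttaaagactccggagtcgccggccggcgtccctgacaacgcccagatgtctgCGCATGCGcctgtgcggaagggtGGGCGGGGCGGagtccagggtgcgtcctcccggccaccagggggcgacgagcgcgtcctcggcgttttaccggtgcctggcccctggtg
Cox6a1: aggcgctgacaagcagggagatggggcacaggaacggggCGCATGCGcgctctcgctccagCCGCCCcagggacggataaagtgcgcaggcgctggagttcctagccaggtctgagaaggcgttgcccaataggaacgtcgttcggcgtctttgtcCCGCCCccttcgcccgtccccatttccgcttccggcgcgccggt
Atp5g2: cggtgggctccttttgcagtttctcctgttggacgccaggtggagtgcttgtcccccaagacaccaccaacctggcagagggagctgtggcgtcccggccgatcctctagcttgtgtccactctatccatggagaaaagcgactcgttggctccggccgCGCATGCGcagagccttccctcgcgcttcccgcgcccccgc
Cycs: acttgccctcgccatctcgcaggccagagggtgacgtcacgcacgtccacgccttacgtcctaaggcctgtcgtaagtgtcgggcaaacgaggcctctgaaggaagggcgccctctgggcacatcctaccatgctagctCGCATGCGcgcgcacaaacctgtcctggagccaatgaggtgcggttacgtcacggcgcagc

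The pair Cox6b1 and Cox6b2 is shown because these genes ran in opposite directions between liver and uterus. Capitals mark a GC box GGGCGG, here 193 bases before the start of Cox6b2, and none of the letters above occurs in the Cox6b1 span on either strand. The positions are Cox6b1 chr7:30626115-30626314 (minus strand), Cox6b2 chr7:4753095-4753294 (minus strand).
Cox6b1: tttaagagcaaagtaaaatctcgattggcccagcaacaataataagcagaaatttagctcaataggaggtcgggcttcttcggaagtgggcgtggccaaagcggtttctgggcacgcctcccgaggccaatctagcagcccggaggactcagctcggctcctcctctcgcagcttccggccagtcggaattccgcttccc
Cox6b2: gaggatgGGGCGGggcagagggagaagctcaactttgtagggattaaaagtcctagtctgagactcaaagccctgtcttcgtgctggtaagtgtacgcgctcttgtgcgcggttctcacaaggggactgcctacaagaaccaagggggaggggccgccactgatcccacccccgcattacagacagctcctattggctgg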

How the data were processed

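The scanner files give the intensity of each spot as background-corrected processed signal, and the table deposited by the authors gives log2 values after their percentile shift; the scanner intensity was used. The headers name Feature Extraction 11.5.1.1, whereas the labels name 9.1. Outlier spots were left out, spots of a probe averaged, log2 taken and the array's 75th percentile subtracted. Transcripts were mapped to symbols with RefSeq GRCm38.p6. Other scalings were the 50th percentile, the 75th percentile of bright probes, quantile normalization, normexp with offset 50, the authors' table with its uterus columns exchanged, and none. Calls were also made at 1.5-fold, with each probe or the brightest probe, with other filters and without the assembly factors or isoforms. Genes are named where they lie at the end of their group's range, or carry the group's central function. Members and lists were chosen with earlier results of these data known. The steps were tested on simulated data with planted changes. Tools were Python 3.11.15, pandas 2.3.3, numpy 2.4.6, matplotlib 3.10.9, R 4.3.3 and limma 3.58.1.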

Additional observations from a re-analysis of the deposited data

How the results depend on the processing

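Main values were medians of 0.05, 0.02 and −0.02 with BHPF in liver, ovary and uterus, 1.005 for liver minus uterus, 1.06 for liver minus ovary and −0.08 for ovary minus uterus, and counts of 0 with BHPF, 50 for liver against uterus, 63 for liver against ovary and 1 for ovary against uterus. Of all genes, 20.0% were higher and 22.6% lower for liver minus uterus. These shares were 21.6% and 22.7% for liver minus ovary, and 11.0% and 13.6% for ovary minus uterus. The shares of all genes higher in liver with the 50th percentile, bright-probe, quantile and unscaled values are given above. With the 50th percentile the median was −0.27 with BHPF in liver, 1.53 for liver minus ovary and 1.58 for liver minus uterus, with counts of 89 for liver against uterus and 2 for ovary against uterus. With the 75th percentile of bright probes it was 0.68 for liver minus ovary and 0.64 for liver minus uterus, with counts of 10 and 12. With quantile normalization it was 0.16 for liver minus ovary, 0.28 for liver minus uterus and 0.0943 for ovary minus uterus, with counts of 5, 6 and 2. Without scaling it was −0.21 with BHPF in ovary, −0.26 with BHPF in uterus, 0.37 for liver minus uterus, −0.0614 for liver minus ovary, a reversal, and 0.41 for ovary minus uterus, with counts of 7, 6 and 5 for liver against uterus, liver against ovary and ovary against uterus. At 1.5-fold the counts were 1 with BHPF in liver, 88 for liver against uterus and 7 for ovary against uterus. The share of all genes at 1.5-fold is not given and can only be higher than at 2-fold, so nothing is read from these counts. Counting each probe gave 1 with BHPF in ovary. Without the background filter and without bounds the counts were 1 with BHPF in liver and 2 for ovary against uterus. The count for ovary against uterus was 4 on the BHPF arrays, 3 with the authors' table as headed, 2 with the dim side's own values, and 0 with only genes bright on all arrays and without the tissue-restricted isoforms. The cause of these moves was not tested.

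The alternatives without scaling and without the tissue-restricted isoforms were chosen after seeing the data. Members by the gene name column was not run, because the files have no such column. Leaving out saturated probes equals the main values, with 0 saturated spots. No paired analysis was planned or run: the labels carry no replicate numbers that tie arrays together.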

Other observations

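Adipocyte markers, outside the comparisons above, differed between the uterus arrays: 7 of 9 were well above background in control and 6 with BHPF, with summed levels of 4.51 and 2.498. The summed level of the leukocyte markers was lower on the BHPF array of each tissue. It was 37.7 in control and 15.7 with BHPF in liver, 10.1 and 5.94 in ovary, and 12.5 and 8.45 in uterus. Well above background were 8 and 7, 8 and 8, and 7 and 7 of 8. S100a9 was the brightest on the liver control array, at a level of 3.96, and Lyz2 on the other arrays. The sums of adipocyte and leukocyte markers are linear, so the brightest genes weigh most, and the direction of single markers is not given. A change in cell numbers was not tested.

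The limits are these. Each group had 1 array of pooled RNA, so no spread between animals is known. Where an array lay on the slide went with treatment. The uterus columns of the authors' table are exchanged relative to the scanner files. The BHPF uterus array holds liver transcripts, whose source was not tested. The liver offset of the members depends on how arrays with different distributions are scaled. Subunits encoded by mitochondrial DNA are not covered by the symbols, and transcripts say nothing of protein or respiration.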
